A study of Homo sapiens with 24 samples.

Results

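Galunisertib (LY2157299) inhibits the kinase of the type I TGFβ receptor, and the comparison described here is the one between 2 hepatocellular carcinoma (HCC) lines in their response to it. For each gene, the change with galunisertib in PLC/PRF/5 cells was subtracted from the change in SNU-449 cells, so that a positive difference means a gene that went up more, or down less, in SNU-449. The comparison took 12 of the 24 arrays of the study, 3 for each line as untreated control cells and 3 for each line with galunisertib alone at 10 µM for 16 h. Both are established human lines, starved of serum overnight before treatment, with independent cultures in triplicate, and the sources used here call the controls untreated and name no vehicle. The other 12 arrays, from cells that received TGFβ1 at 1 ng/mL for 16 h with or without galunisertib at 10 µM, allowed the same comparison in other cultures.

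In background, TGFβ binds a pair of receptor kinases, and the type I kinase phosphorylates SMAD2 and SMAD3, which enter the nucleus with SMAD4 and change transcription. Among the genes they switch on is SMAD7, which inhibits the same receptor. In liver cancer the pathway is known both for holding back cell division and for driving the loss of epithelial and hepatocyte traits, and the type I receptors of activin and nodal are also targets of the drug. Each line stands for itself, and other HCC lines were not measured here.

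Levels are given as the log2 of the array signal relative to the 75th percentile of its array, so 0 is the level at that percentile and 1 unit is a doubling. A probe was kept when its signal was well above background on all 12 arrays, which leaves out genes silent in one of the lines. This held for 19741 of 58201 probes, of which 16615 had a gene name, and 13105 genes were tested with 1 probe each. The 75th percentile lay between 145 and 257 intensity units on the 12 arrays and 41.6% to 48.3% of the probes were well above background. Replicate arrays of the SNU-449 galunisertib group were the least alike, with a median SD of 0.176 over genes against 0.118 to 0.132 in the other groups. A group always lay at one place on the slide, for all 3 slides, so position and group cannot be told apart.

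The lines carried the markers of their kind unequally. The probe of SERPINA1, a hepatocyte product, read 8.78 ± 0.43 (SD, n = 3) in PLC/PRF/5 controls and -3.004 ± 0.09 in SNU-449 controls. Albumin (ALB) was well above background on 3 of 3 control arrays of PLC/PRF/5 and 0 of 3 of SNU-449, as was EPCAM, an epithelial surface protein. The probe of vimentin (VIM), an intermediate filament of mesenchymal cells, read 7.31 ± 0.12 in PLC/PRF/5 and 8.79 ± 0.21 in SNU-449. CDH2, another mesenchymal marker, read 3.77 ± 0.07 and 5.09 ± 0.13 in the controls. FN1, also taken as a mesenchymal marker, went the other way. It read 2.55 ± 0.05 in PLC/PRF/5 controls and was well above background on 1 of 3 SNU-449 controls. The receptor genes TGFBR1 and TGFBR2, named here as the drug target and its partner, were well above background on all 12 arrays, and their differences of 0.08 and 0.17 were not called.

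A gene was called when the difference between the lines was over 2-fold with an unadjusted P below 0.001 in limma's test. By this rule 111 genes were called, which is 0.847% of those tested. The difference was positive for 53 of them (0.404% of genes tested), described as higher in SNU-449. It was negative for 58 (0.443%), described as lower. Higher and lower refer to the signed change and not to its size. With a Benjamini-Hochberg adjusted p below 0.05 in place of the unadjusted one, 105 genes (0.801%) were called. The balance of the directions depended on how arrays were scaled, with 28 higher and 55 lower after scaling to the array median, 13 and 82 with no scaling, and 19 and 78 after normexp background correction. Without scaling, the median difference over all genes moved from 0.03 to -0.15, and changes are described relative to the 75th percentile throughout.

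In SNU-449 alone, 99 genes (0.755%) changed with galunisertib, 42 upward (0.320%) and 57 downward (0.435%). The same probes showed 19 changed genes (0.145%) in PLC/PRF/5, 14 upward (0.107%) and 5 downward (0.0382%). Without replicate 2 of the SNU-449 galunisertib arrays the SNU-449 count was 153. The genes called in both lines numbered 4, which is 4.04% of the SNU-449 calls and 21.1% of the PLC/PRF/5 calls. Across the 13105 genes, the changes in the lines had a Pearson r of 0.12 and a Spearman rho of 0.13, given as a description because genes are not independent replicates. The plot of one change against the other shows the called genes on both sides of the line of equal change.

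**Figure D1:**
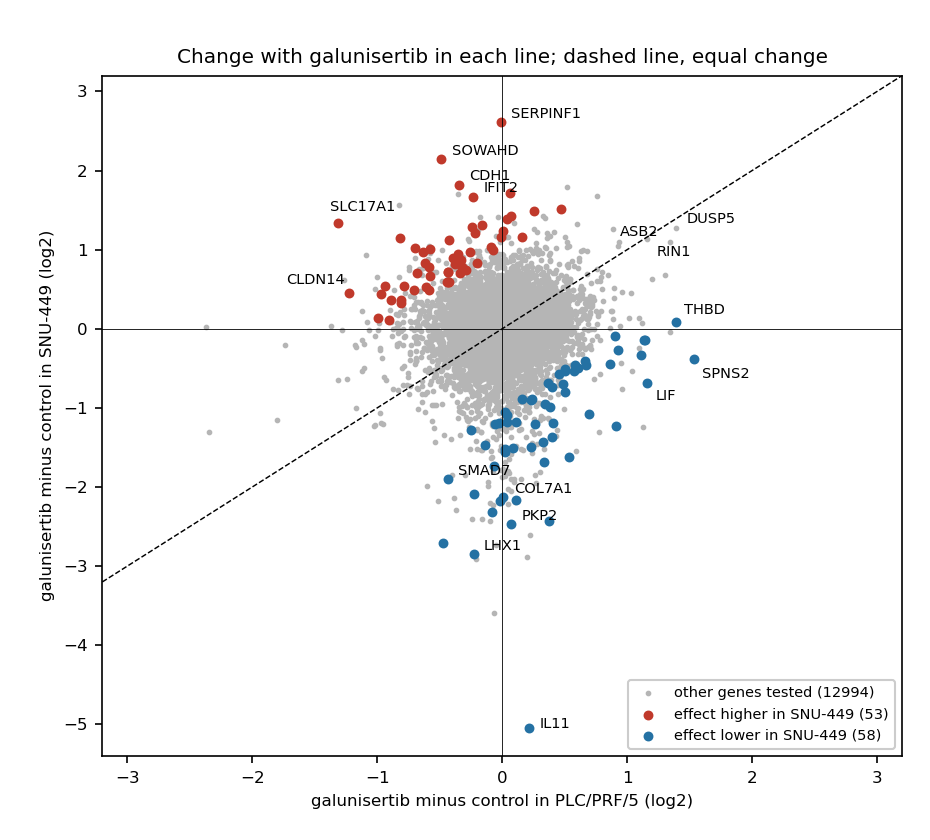
Change with galunisertib against control in PLC/PRF/5 (horizontal axis) and SNU-449 (vertical axis), both in log2 units, with 1 point per gene. Red marks the 53 genes with a positive difference, blue the 58 with a negative one, and grey the other tested genes. IL11 stands alone at a change of -5.04 in SNU-449.

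For most called genes the difference joined a change in SNU-449 to a smaller one of the opposite sign in PLC/PRF/5. The signs of the changes were opposite for 92 of the 111. The genes were picked by the difference, which favours changes of opposite sign. The signs and sizes given here for the called genes are therefore a description. The change was the larger one in SNU-449 for 85 genes and in PLC/PRF/5 for 26, and over all 111 the median sizes were 0.97 and 0.40. Taken alone, 51 of the genes were called in SNU-449 and not in PLC/PRF/5, 7 in PLC/PRF/5 and not in SNU-449, 1 in both and 52 in neither. The genes with a negative difference had a median change of -1.14 in SNU-449 compared with 0.34 in PLC/PRF/5, and those with a positive difference had medians of 0.87 and -0.43. The smallest differences that were called were those of RUNX1 at -1.001 and PSCA at 1.01.

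The largest difference was that of IL11, a cytokine of the IL-6 family that TGFβ is known to induce. In SNU-449 controls IL11 read 2.69, 2.77 and 2.96, and with galunisertib -1.02, -3.09 and -2.59. On the PLC/PRF/5 arrays it read -0.95, -0.58 and -0.50 in controls and -0.49, -0.55 and -0.35 with galunisertib. The SNU-449 groups lay far apart, and the PLC/PRF/5 galunisertib arrays overlapped their controls. Over all tested genes, control and galunisertib arrays did not overlap for 28.4% in SNU-449 compared with 29.0% in PLC/PRF/5, so lack of overlap alone sets no gene apart. The change was -5.04 ± 0.40 (SE of the fit) in SNU-449 compared with 0.22 ± 0.40 in PLC/PRF/5, and the difference was -5.26 ± 0.57 (adjusted p = 0.0015). It was called under each of the 26 alternatives that could measure it, at -5.86 to -3.79. The 250 bases before its start are shown because no other gene differed as much, with a match to the AP-1 site in capitals (chr19:55370464-55370713, minus strand, GRCh38.p14, sequence from RefSeq).
IL11: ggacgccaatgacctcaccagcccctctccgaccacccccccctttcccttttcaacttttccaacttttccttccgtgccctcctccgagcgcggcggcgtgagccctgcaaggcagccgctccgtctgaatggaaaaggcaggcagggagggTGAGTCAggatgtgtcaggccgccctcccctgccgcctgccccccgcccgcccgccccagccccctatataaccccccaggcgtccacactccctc

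SERPINF1 encodes the secreted protein PEDF, which restrains the growth of blood vessels. On the SNU-449 arrays it read -1.56, -0.55 and -0.82 in controls and 1.74, 1.31 and 1.86 with galunisertib. In PLC/PRF/5 it stayed between 4.99 and 5.22 on all 6 arrays. All 3 SNU-449 galunisertib arrays were above the controls, while the level in PLC/PRF/5 was higher than either and overlapped between its groups. The difference was 2.62 ± 0.32 (adjusted p = 0.0031), made of a rise of 2.61 in SNU-449 and a change of -0.01 in PLC/PRF/5.

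CDH1 encodes E-cadherin, the adhesion molecule of epithelial cells. Its level in SNU-449 was -1.98, -1.06 and -1.29 in controls and 0.52, -0.13 and 0.75 with galunisertib. PLC/PRF/5 cells gave 2.13, 2.30 and 2.53 in controls and 1.89, 1.89 and 2.14 with galunisertib. The SNU-449 groups were apart, the PLC/PRF/5 groups touched, and the treated SNU-449 arrays stayed below every PLC/PRF/5 array. The difference was 2.17 ± 0.36 (adjusted p = 0.016).

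ONECUT1, also known as HNF6, is a transcription factor of hepatocytes and biliary cells. It read 0.21, -0.57 and -0.17 in SNU-449 controls and 0.63, 0.74 and 1.00 with galunisertib, a change of 0.97 ± 0.17. The PLC/PRF/5 arrays read 4.71, 4.72 and 4.69 in controls and 4.10, 4.02 and 4.11 with galunisertib, a change of -0.63. Neither change was over 2-fold, the groups were apart in both lines in opposite directions, and the difference between them of 1.60 ± 0.24 was called (adjusted p = 0.0096).

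SLC17A1, a sodium-dependent phosphate and organic anion transporter of liver and kidney, was the one gene called in both lines with opposite signs. It read -3.46, -2.70 and -3.08 in SNU-449 controls and -1.92, -1.54 and -1.79 with galunisertib. On the PLC/PRF/5 arrays it read -1.84, -1.82 and -2.02 in controls and -3.28, -3.32 and -3.02 with galunisertib. The groups were apart in both lines, so that the order of the lines reversed with treatment. The difference was 2.64 ± 0.25 (adjusted p = 0.00101), and after normexp background correction it was 0.99 and not called. Its levels lie near the lower limit of the measurement, which was set at -4.13.

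**Figure D2:**
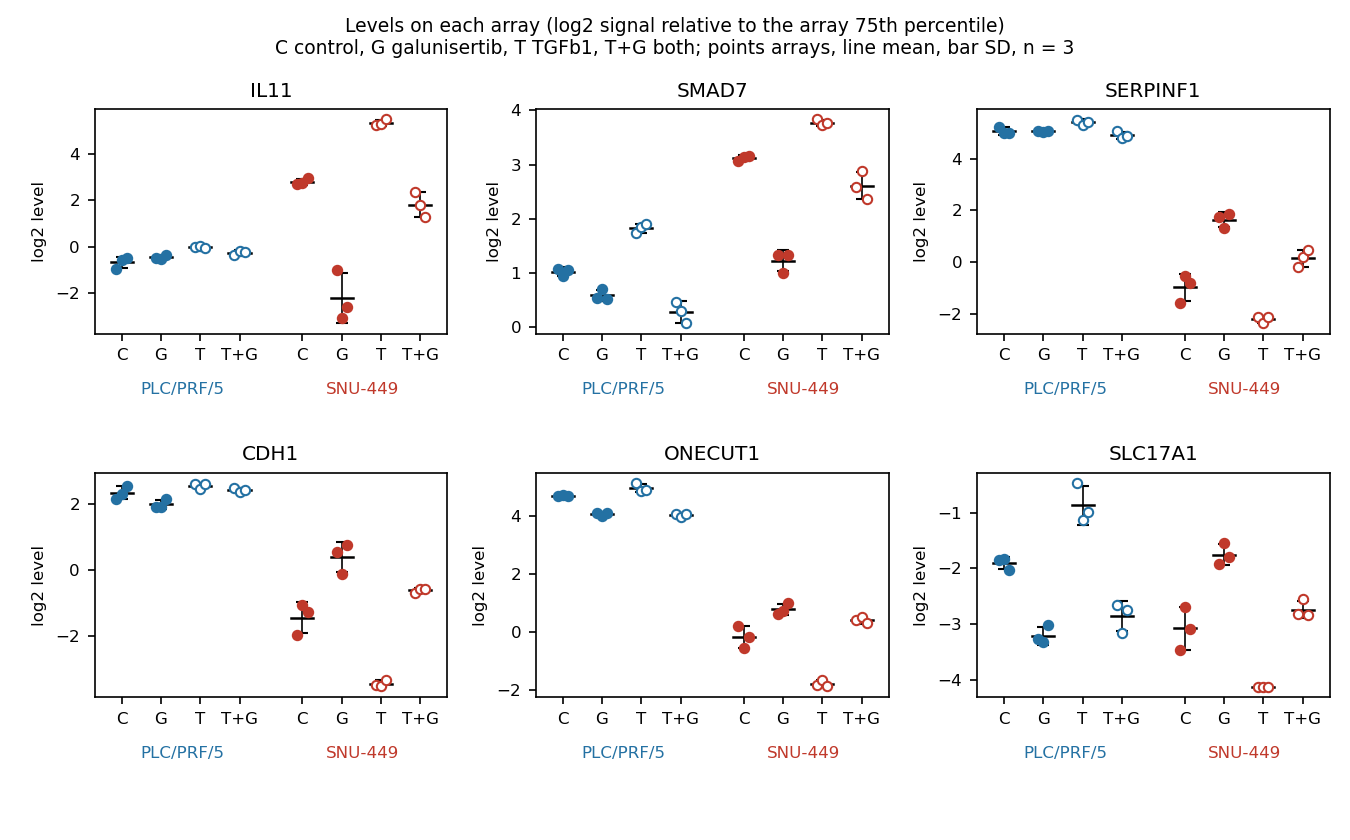
Level of 6 genes on each array in log2 units relative to the 75th percentile of the array, by line and treatment (C control, G galunisertib, T TGFβ1, T+G both), with points for arrays and lines and bars for mean and SD (n = 3). IL11 and SMAD7 go down with galunisertib in SNU-449, SERPINF1, CDH1, ONECUT1 and SLC17A1 go up there, and the 3 SLC17A1 points of SNU-449 with TGFβ1 sit at the lower limit of -4.13.

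SLC17A1 was also one of 3 called genes that follow each other along chromosome 6 among the genes tested. SCGN, which encodes the calcium sensor secretagogin, and SLC17A3, a transporter of urate and organic anions, lie on either side of it, with 2 and 6 other RefSeq genes starting in between. SCGN rose by 1.15 in SNU-449 and changed by -0.82 in PLC/PRF/5, a difference of 1.97 ± 0.28 (adjusted p = 0.0065). SLC17A3 changed by 1.03 and -0.69, a difference of 1.72 ± 0.33 (adjusted p = 0.028). The annotation placed 11998 tested genes, 104 of them called, and these formed 11975 pairs of neighbours. Both genes were called in 7 of the pairs, and 6 of these pairs had the same sign. The share of all neighbour pairs with the same sign was not computed. The pair UCN2 and COL7A1, both with a negative difference, is one of them, as are LITATS1 and ZC3H12A, RNF121 and IL18BP, and SOX9 and LINC00673. The pair with opposite signs was SPATA17 and RRP15. These pairs were picked after their values were seen, and overlapping transcripts were not examined.

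The 250 bases before the start of each gene of the 3-gene run and of COL7A1 are printed because these neighbours moved together. Capitals mark matches to CAGACA, the core of the CAGA box that SMAD proteins bind, and to TGANTCA, the AP-1 site, on either strand, and these motifs do not overlap each other in the sequences shown. The palindromic SMAD box GTCTAGAC was searched as well and has no match in them. The positions are chr6:25651965-25652214, plus strand for SCGN, chr6:25832053-25832302, minus strand for SLC17A1, chr6:25874244-25874493, minus strand for SLC17A3 and chr3:48595330-48595579, minus strand for COL7A1, in GRCh38.p14 with sequences from RefSeq.
SCGN: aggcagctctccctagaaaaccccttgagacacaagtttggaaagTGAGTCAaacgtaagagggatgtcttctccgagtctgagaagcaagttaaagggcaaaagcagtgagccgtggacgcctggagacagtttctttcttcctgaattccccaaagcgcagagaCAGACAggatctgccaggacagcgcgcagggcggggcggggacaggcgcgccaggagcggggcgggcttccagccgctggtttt
SLC17A1: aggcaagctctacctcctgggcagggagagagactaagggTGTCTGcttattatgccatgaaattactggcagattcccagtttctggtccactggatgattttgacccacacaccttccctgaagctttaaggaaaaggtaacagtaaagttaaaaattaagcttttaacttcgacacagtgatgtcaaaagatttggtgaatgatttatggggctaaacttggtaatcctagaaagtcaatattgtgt
SLC17A3: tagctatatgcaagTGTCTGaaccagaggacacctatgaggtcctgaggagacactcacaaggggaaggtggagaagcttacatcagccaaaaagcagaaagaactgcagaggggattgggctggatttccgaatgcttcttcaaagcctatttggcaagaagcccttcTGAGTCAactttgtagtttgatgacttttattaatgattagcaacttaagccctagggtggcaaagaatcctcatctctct
COL7A1: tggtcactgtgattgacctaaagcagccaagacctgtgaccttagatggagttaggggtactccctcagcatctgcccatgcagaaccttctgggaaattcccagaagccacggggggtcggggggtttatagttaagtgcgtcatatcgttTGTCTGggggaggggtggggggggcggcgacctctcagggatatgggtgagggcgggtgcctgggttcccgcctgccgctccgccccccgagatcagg

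Matches to CAGACA occurred in all 4 of these sequences but not in the IL11 window shown above. The 4 were picked after their values were seen, and the window of UCN2, the neighbour of COL7A1, is not shown. CAGACA was present in 13.6% of the 27305 promoter windows of the same length in the RefSeq table. Of the called genes, 75 had a window in that table. CAGACA was present in 6 of 35 windows of the genes with a positive difference and in 6 of 40 of those with a negative one (17.1% and 15.0%), against 9.79% of the 9563 windows of tested genes. TGANTCA was present in 2 of 35 and 5 of 40 (5.71% and 12.5%), against 3.74% of tested genes and 6.6% of all windows. GTCTAGAC was in none of the 75 windows and in 0.176% of all. A match is a description of the letters and not a binding site.

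Among the other genes with the largest positive differences, SOWAHD, which encodes an ankyrin repeat protein, rose by 2.15 in SNU-449 and changed by -0.49 in PLC/PRF/5 (difference 2.64 ± 0.46, adjusted p = 0.019). IFIT2, an interferon-induced gene, rose from 0.35, 0.65 and 0.79 to 2.40, 2.02 and 2.37 in SNU-449. In PLC/PRF/5 IFIT2 lay between -2.73 and -2.15 on all 6 arrays, and its difference was 1.90 ± 0.24 (adjusted p = 0.0044). COXFA4L3 showed a difference of 1.65 ± 0.19 (adjusted p = 0.0023), nearly all of it from a rise of 1.72 in SNU-449. For CLDN14, a claudin of tight junctions, the larger change was in PLC/PRF/5, and the difference was 1.68 ± 0.26 (adjusted p = 0.0105). It read 1.14, 1.61 and 1.73 in PLC/PRF/5 controls and 0.22, 0.12 and 0.47 with galunisertib, and the groups did not overlap.

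Among the largest negative differences, LHX1, a homeodomain transcription factor, had the smallest p. It read 4.68, 4.87 and 4.78 in SNU-449 controls and 2.01, 1.82 and 1.97 with galunisertib, with a difference of -2.61 ± 0.14 (adjusted p = 2.2e-05). PKP2, a plakophilin of desmosomes, had a difference of -2.54 ± 0.33 (adjusted p = 0.0044), going from 0.94, 0.87 and 1.09 to -2.14, -1.06 and -1.32 in SNU-449. COL7A1, the collagen of anchoring fibrils, read 2.11, 2.25 and 2.03 in SNU-449 controls and -0.37, 0.09 and 0.28 with galunisertib, with all 6 PLC/PRF/5 arrays between -0.43 and -0.05. KRT83, a hair keratin, fell by 1.62 in SNU-449 against a change of 0.53 in PLC/PRF/5 (difference -2.15 ± 0.17, adjusted p = 0.00034). EPHB2, a receptor for ephrins, had a difference of -2.16 ± 0.42 (adjusted p = 0.033). The long noncoding RNAs lnc-EPHA1-1:1 and lnc-ATG7-2:1 had differences of -2.80 and -2.28. The call of lnc-EPHA1-1:1 was lost when all 24 arrays were fitted, and lnc-ATG7-2:1 had -1.07 and was not called after normexp background correction.

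Some of these calls rested on little. For SEPTIN2, a cytoskeletal GTPase, the probe tested gave a difference of -2.24 and the other probe of the gene -0.02. UCN2, which encodes the peptide urocortin 2, read -2.40, -0.87 and -0.77 in SNU-449 with galunisertib, and its difference of -2.23 ± 0.49 had an adjusted p of 0.051. EPHB2 was not called without replicate 1 of the SNU-449 controls or of the SNU-449 galunisertib arrays, at -2.01 and -1.96. Leaving out 1 array ended the call of SEPTIN2 for 10 of the 12 arrays and that of UCN2 for 9, and their differences then lay between -2.33 and -1.97 and between -2.32 and -2.13. Of the 111 called genes, 25 (22.5%) were measured on spots at the edge of the array alone, against 16.9% of all tested genes, and 17 of the 25 had a negative difference. IL11, LHX1, PKP2, SEPTIN2, UCN2, SOWAHD, lnc-EPHA1-1:1, SMAD7 and SPRY4 are among them. Without edge spots, 91 genes were called among 11366, and 86 of the 90 called genes that could still be tested were called again.

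**Figure D3:**
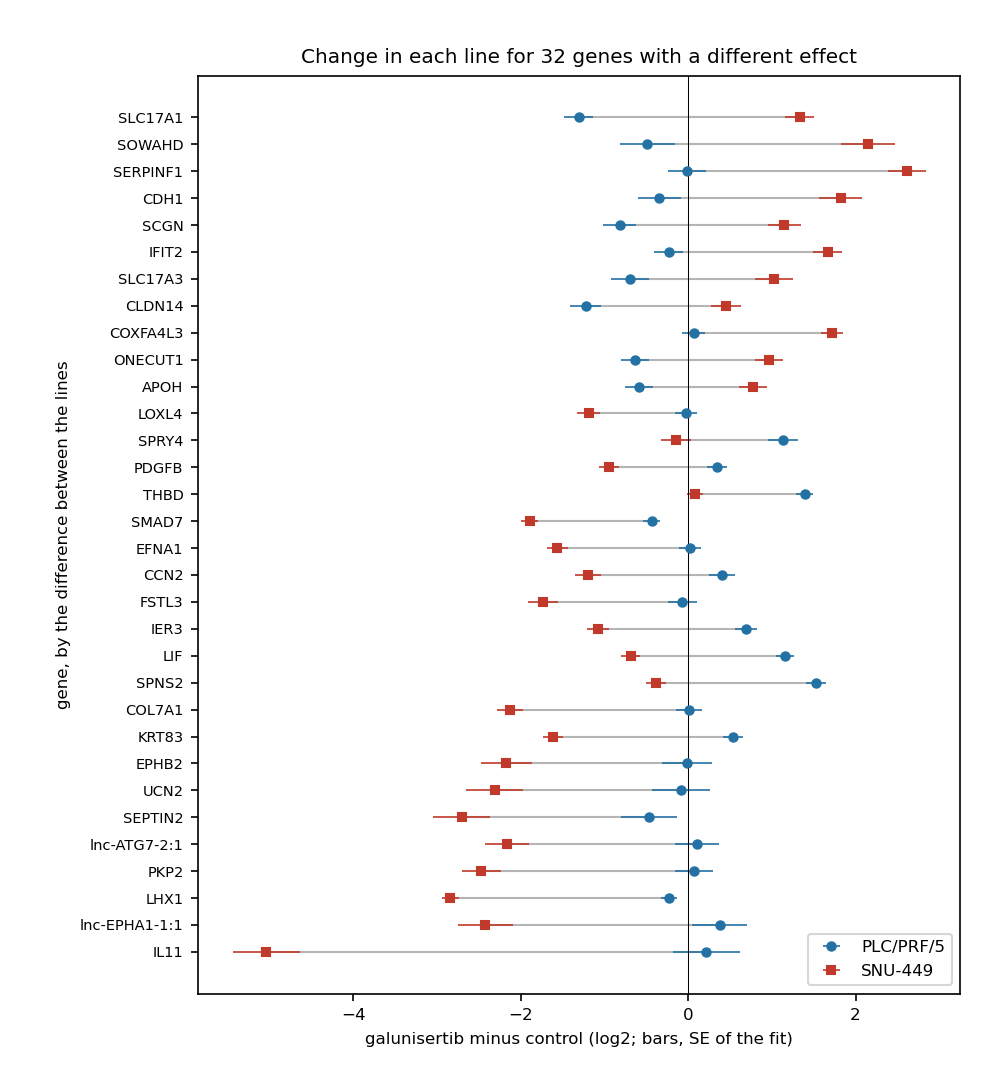
Change with galunisertib in PLC/PRF/5 (blue circles) and SNU-449 (red squares) for 32 named genes with a called difference, in log2 units with bars for the SE of the fit, ordered by the difference. The change in PLC/PRF/5 is the larger one in CLDN14, SPRY4, THBD, LIF and SPNS2, and that in SNU-449 in the other genes.

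Among genes known to respond to TGFβ, the called ones all had a negative difference, that is, a more negative change in SNU-449. Of 28 such genes 19 could be tested. SKIL and JUNB, well above background on all controls of both lines, were left out because a galunisertib array of SNU-449 was not. Among the 19 tested, 6 had a called negative difference and 0 a positive one. That is 31.6% of those tested against 0.847% of all genes, and 15 of 19 differences were below 0. The median difference was -0.56 in the list and 0.03 over all genes. Its median change was -0.34 in SNU-449 compared with 0.09 in PLC/PRF/5. The 6 called members were IL11, LIF, FSTL3, CCN2, SMAD7 and PDGFB. The list was written with earlier results of these data known, so its count is a description.

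SMAD7, the inhibitory SMAD, read 3.06, 3.15 and 3.16 in SNU-449 controls and 1.34, 1.01 and 1.34 with galunisertib. PLC/PRF/5 cells gave 1.08, 0.94 and 1.06 in controls and 0.54, 0.71 and 0.52 with galunisertib. It was lower with galunisertib on every array of both lines. The change in SNU-449 was -1.90 ± 0.11, that in PLC/PRF/5 was -0.44 (adjusted p = 0.087), and the difference was -1.46 ± 0.15 (adjusted p = 0.0015). FSTL3, a secreted antagonist of activins, changed by -1.74 in SNU-449 compared with -0.07 in PLC/PRF/5. CCN2, a matricellular protein, changed by -1.20 and 0.41, and PDGFB, a growth factor chain, by -0.95 and 0.34.

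LIF, another IL-6 family cytokine, had changes of opposite sign in the lines. It read 4.42, 4.38 and 4.44 in SNU-449 controls and 3.59, 3.89 and 3.70 with galunisertib. The PLC/PRF/5 arrays read -1.16, -1.48 and -1.18 in controls and -0.05, -0.14 and -0.15 with galunisertib. The groups were apart in each line with opposite directions, and the difference was -1.85 ± 0.15 (adjusted p = 0.00049), with a rise of 1.16 called in PLC/PRF/5 and a change of -0.69 not over 2-fold in SNU-449. Other members of the list differed less. SKI and TGIF1, corepressors of SMAD proteins, had differences of -0.24 and -0.27, and BAMBI, a decoy receptor, had 0.56, none of them called.

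The ligands, receptors and SMAD proteins of the pathway were not called for the difference between the lines. Of 13 such genes tested, 0 were called by limma, against 0.847% of all genes, and the median was -0.01. An unadjusted p below 0.05 was found for 4 of them (30.8%), against 13.7% of all genes. TGFB1, the gene of the ligand itself, had a difference of -2.11 (adjusted p = 0.075), and TGFB2 had -0.31. Of 15 genes of activin and BMP signalling, 0 were called, with a median of -0.11. An unadjusted p below 0.05 was found for 4 of these 15 (26.7%). BMP4, a ligand of the BMP receptors, had 0.95 (adjusted p = 0.022), just under 2-fold.

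Among 14 transcription factors of hepatocytes, 11 differences were above 0, and the median was 0.58 against 0.03 over all genes. Of the 14, 1 was called, that of ONECUT1 (7.14% of the list, against 0.847% of all genes). FOXA2 rose in SNU-449 by 1.02, and its difference of 0.75 ± 0.13 had an adjusted p of 0.021 but was under 2-fold. HLF, a PAR bZIP factor, changed by 1.26 in SNU-449 compared with 0.25 in PLC/PRF/5, with a difference of 1.01 (adjusted p = 0.088). ONECUT2, the close relative of ONECUT1, stood apart at -1.37 (adjusted p = 0.17), measured on an edge spot. FOXA1, CEBPA, CEBPB, CEBPD, PPARA, RXRA and DBP had differences between 0.39 and 0.80, and NR5A2 and GATA4 had -0.14 and -0.33, none of them called.

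Several factors of this list could not be compared. HNF4A, FOXA3, NR0B2, PROX1, GATA6 and CREB3L3 were well above background on all 6 arrays of PLC/PRF/5 and on 0 of 6 of SNU-449. HNF4A read -2.57 ± 0.34 in PLC/PRF/5 controls and -3.02 ± 0.12 with galunisertib, and CREB3L3 read 3.88 ± 0.14 and 3.27 ± 0.13. SERPINF2, BDH1 and RGS9 were left out for the same reason. SERPINF2, which encodes the inhibitor of plasmin, went from -0.77 ± 0.06 to -1.80 ± 0.11 in PLC/PRF/5 and was well above background on 0 of 3 control arrays and 1 of 3 galunisertib arrays of SNU-449. BDH1, an enzyme of ketone body metabolism, went from -0.05 ± 0.22 to -2.43 ± 0.43 in PLC/PRF/5 and was well above background on 1 of 6 SNU-449 arrays. RGS9, a regulator of G protein signalling, passed on all 6 SNU-449 arrays and 0 of 6 of PLC/PRF/5. Its probes read 2.18 ± 0.08 and -0.68 ± 0.19 in SNU-449 controls and 1.00 ± 0.18 and -1.96 ± 0.30 with galunisertib.

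Of 14 products of hepatocytes tested, 13 differences were above 0, with a median of 0.52, a median change of 0.27 in SNU-449 and one of -0.25 in PLC/PRF/5. APOH, a plasma apolipoprotein, was the called member (7.14% of the list, against 0.847% of all genes). It read -2.60, -2.32 and -2.40 in SNU-449 controls and -1.43, -2.10 and -1.47 with galunisertib, and 2.75, 2.61 and 2.82 against 2.20, 2.04 and 2.18 in PLC/PRF/5. Both lines were without overlap in opposite directions, the difference was 1.36 ± 0.23 (adjusted p = 0.016), and it was 0.77 and not called after normexp background correction. It was also not called after scaling to the array median or with no scaling. APOA1, the apolipoprotein of high-density lipoprotein, had 0.90, and APOE, another lipoprotein component, had 0.42, neither of them called. Of 6 phosphate and anion transporters tested, all 6 differences were above 0, with SLC17A1 and SLC17A3 called (33.3% of the list against 0.847% of all genes). Both belong to the run of neighbours on chromosome 6, and the list was written with earlier results known.

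Among 23 genes that feed back on or respond early to MAPK signalling, the median change was 0.13 in SNU-449 compared with 0.57 in PLC/PRF/5. The median difference was -0.27, and 2 were called, both negative (8.7% of the list, against 0.847% of all genes). IER3, an immediate-early gene, read 5.69, 5.95 and 5.97 in SNU-449 controls and 4.81, 4.54 and 5.02 with galunisertib. On the PLC/PRF/5 arrays it read 5.61, 5.47 and 5.63 and then 6.30, 6.16 and 6.33. The controls of the lines were close, the groups were apart in both lines, and the directions were opposite, with a difference of -1.77 ± 0.18 (adjusted p = 0.0015) and -1.86 on its other probe. SPRY4, an inhibitor of receptor tyrosine kinase signalling, rose by 1.13 in PLC/PRF/5 and changed by -0.14 in SNU-449, a difference of -1.28, but its other probe gave 0.16 and the mean of its probes -0.56, not called. SPRY4 was not called, at -1.28 to -1.17, without replicate 2 of the PLC/PRF/5 controls, replicate 1 or 3 of the PLC/PRF/5 galunisertib arrays, or replicate 1 or 2 of the SNU-449 controls.

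A pair of genes of this list rose in both lines. DUSP5, the phosphatase that inactivates ERK, rose by 1.28 in SNU-449 compared with 1.39 in PLC/PRF/5. It read -0.69, -0.60 and -0.34 in PLC/PRF/5 controls and 0.92, 0.73 and 0.90 with galunisertib, and in SNU-449 it read -1.39, -1.56 and -1.63 and then -0.28, -0.08 and -0.38. RIN1, an effector of Ras, rose by 1.13 and 1.16. Outside the list, ASB2, a subunit of a ubiquitin ligase, rose by 1.09 and 1.34. The differences were -0.11 ± 0.17, -0.02 ± 0.14 and -0.25 ± 0.28 for DUSP5, RIN1 and ASB2, and a P that misses the threshold does not show that the lines respond alike.

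Regulators of blood vessels held the highest share of called genes among the 17 lists. Of 10 tested, 4 were called (40.0% against 0.847% of all genes), with SERPINF1 positive and THBD, EFNA1 and SPNS2 negative. This list too was written with earlier results known, so its place among the lists is a description. THBD, which encodes thrombomodulin, rose from -0.33, -0.23 and 0.02 to 1.31, 1.17 and 1.16 in PLC/PRF/5 and lay between 1.86 and 2.01 on all 6 arrays of SNU-449. SPNS2, an exporter of sphingosine 1-phosphate, rose from 1.10, 1.01 and 1.17 to 2.71, 2.48 and 2.68 in PLC/PRF/5. In SNU-449 SPNS2 read 6.41, 6.31 and 6.36 in controls and 6.26, 5.82 and 5.86 with galunisertib, and its difference was -1.91 ± 0.17 (adjusted p = 0.00084). EFNA1, an ephrin ligand, changed by -1.56 in SNU-449, against 0.02 in PLC/PRF/5. VEGFA, the main vascular growth factor, had a difference of -0.23 that was not called.

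Epithelial, mesenchymal and matrix genes showed single members with large differences inside lists with medians near 0. Among 18 epithelial genes, CDH1 was called positive and PKP2 negative (11.1%, against 0.847% of all genes), with a median of 0.05. Of 25 mesenchymal genes 11 could be tested. Those left out include SNAI2, TWIST1, ACTA2 and TNC, well above background on every SNU-449 array and on no PLC/PRF/5 array. Among the 11 tested, 0 were called and 4 had an unadjusted p below 0.05 (36.4%, against 13.7% of all genes). The list had a median of -0.01, and VIM had -0.74 and CDH2 -0.01. Among 17 matrix genes COL7A1 and LOXL4, a lysyl oxidase, were called negative (11.8%), with a median of -0.05. LOXL4 read 1.91, 2.44 and 2.15 in SNU-449 controls and 0.95, 0.87 and 1.12 with galunisertib, and from 4.59 to 4.84 on all PLC/PRF/5 arrays. Its difference of -1.16 was not called after scaling to the array median (-1.20), with no scaling (-1.34), or without replicate 2 (-0.93) or 3 (-1.27) of all groups. The sign of the median in these 3 lists, and in those of ligands, NF-κB and cell cycle genes, turned under some of the normexp, median, quantile and unscaled alternatives, while that of the other lists held under all 4.

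The remaining lists had 0 called genes, with 11 sterol, 2 cell cycle, 5 NF-κB, 4 ER stress and 4 CDK inhibitor genes at an unadjusted p below 0.05, as were 1792 of all genes tested (13.7%). The shares were 42.3%, 7.4%, 31.2%, 22.2% and 40.0% in that order. Of 26 sterol and fatty acid synthesis genes, 23 differences were above 0, with a median of 0.30 and none over 2-fold. The medians were 0.02 for 27 cell cycle genes, 0.06 for 16 NF-κB and inflammatory genes, -0.17 for 18 genes of the ER stress and ATF4 response, and 0.29 for 10 CDK inhibitors and MYC family genes. Markers of leukocytes, endothelium and stellate cells were above background on all 12 arrays for 3 of 20 genes, CD14, VWF and DES, with differences of 0.32, 0.34 and 0.03, none of them called.

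**Figure D4:**
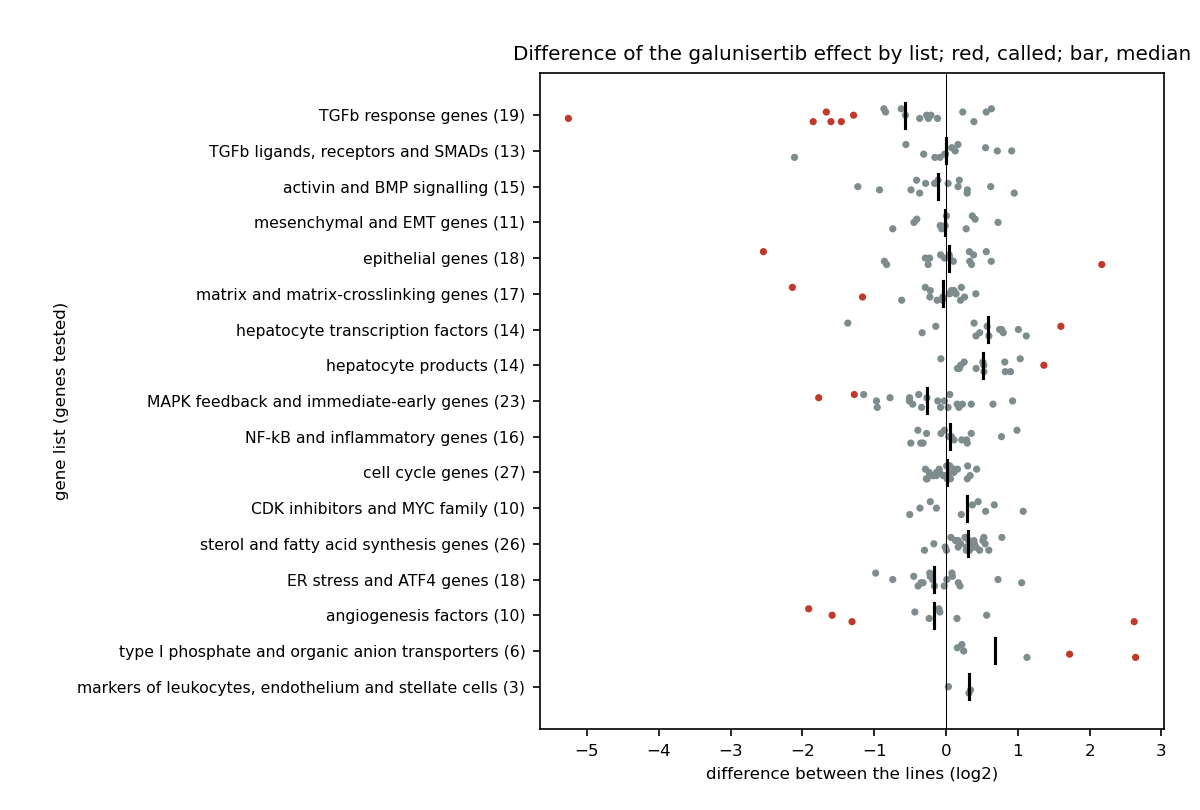
Difference of the galunisertib effect between the lines, in log2 units, for each tested member of 17 gene lists, with called genes in red and a bar at the median of each list. The list of TGFβ response genes lies to the left with 6 called members, and the medians of the hepatocyte lists lie at 0.58 and 0.52.

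The other 12 arrays were then used to see whether the difference was there when TGFβ1 was added to both arms. They lay on the same 3 slides, in the same slide columns as their counterparts without TGFβ1. Slide column and group therefore cannot be told apart in either set. With TGFβ1, 644 genes (4.91%) had a called difference, 376 positive (2.87%) and 268 negative (2.05%). Of the 111 genes, 105 had the same sign with TGFβ1 (94.6%), against 59.9% of all tested genes. A call in the same direction was made for 53 (47.7%), 32 positive and 21 negative, and a call in the opposite one for PFKFB3, a regulator of glycolysis named after its value was seen, whose difference went from -1.03 to 1.25. The median difference with TGFβ1 was 1.33 for the genes with a positive difference and -0.89 for those with a negative one. Of the tested genes, 253 were not well above background on every one of the 12 arrays, and lower signals were raised to 5.70% of the 75th percentile. This can shrink the change within a line, and can make the difference between the lines too small or too large.

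The 5 genes first described kept their direction in these cultures. IL11 read 5.24, 5.32 and 5.50 in SNU-449 with TGFβ1 and 2.36, 1.81 and 1.27 with galunisertib added, while PLC/PRF/5 changed by -0.24. Its difference with TGFβ1 was -3.30 ± 0.29 (adjusted p = 3.6e-05). CDH1 read -3.47, -3.52 and -3.33 in SNU-449 with TGFβ1 and -0.69, -0.59 and -0.59 with both, a difference of 2.95 ± 0.10 (adjusted p = 1.4e-07). SERPINF1 had 2.87 ± 0.21 and ONECUT1 3.13 ± 0.14. SLC17A1 was too weak on every SNU-449 array with TGFβ1 alone, so its difference of 3.39 is a lower limit.

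**Figure D5:**
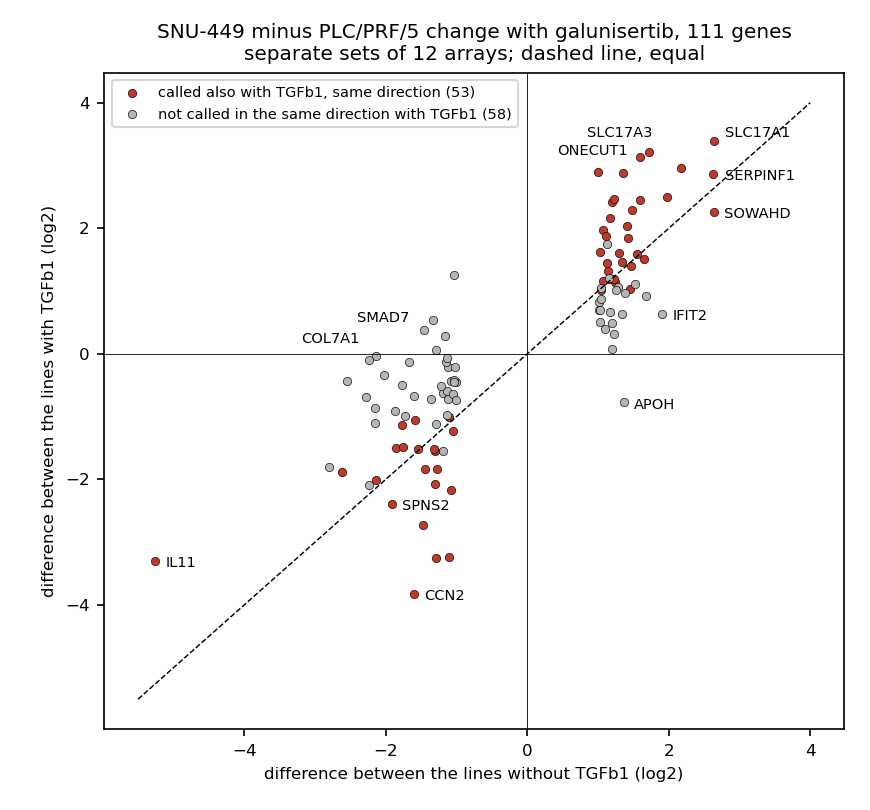
Difference between the lines without TGFβ1 (horizontal axis) and with TGFβ1 (vertical axis), in log2 units from separate sets of 12 arrays, for the 111 called genes. The 53 genes called in the same direction on both sets are red, the dashed line marks equal differences, and SMAD7 and COL7A1 lie near 0 on the vertical axis.

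The difference itself changed with TGFβ1 for some genes. The change of the difference, fitted over all 24 arrays in a contrast chosen after seeing the data, was called for 232 genes of all tested (1.77%) and for 20 of the 111. It made the difference larger in 7 of the 20 and smaller or reversed in 13. Both sets of arrays enter this contrast, so for genes chosen by the difference without TGFβ1 it is a description.

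Among the genes whose difference shrank are TGFβ response genes that had not been called in PLC/PRF/5 without the ligand. SMAD7 read 1.73, 1.84 and 1.90 in PLC/PRF/5 with TGFβ1 and 0.47, 0.30 and 0.07 with galunisertib added. In SNU-449 it read 3.84, 3.73 and 3.76 and then 2.59, 2.88 and 2.37. Galunisertib thus changed SMAD7 by -1.54 in PLC/PRF/5 and -1.16 in SNU-449, and the difference went from -1.46 to 0.38 ± 0.18 (adjusted p = 0.13 for the latter and 0.000199 for the change). FSTL3 changed by -1.29 in PLC/PRF/5 and -1.42 in SNU-449 with TGFβ1, with a difference of -0.13 ± 0.18. COL7A1, of the matrix list, changed by -1.04 and -1.07, with a difference of -0.03 ± 0.35. LOXL4, also of the matrix list, and PDGFB had differences of 0.28 and 0.06 with TGFβ1, and their changes in PLC/PRF/5 were -1.53 and -0.77. UCN2, in none of the lists, had a difference of -0.10 and a change of -1.08 in PLC/PRF/5. The change of its difference was not called.

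CCN2 moved apart instead. With TGFβ1 it read 1.84, 2.20 and 1.74 in PLC/PRF/5 and 3.61, 3.51 and 3.43 with galunisertib added. In SNU-449 it read 4.66, 4.53 and 4.47 and then 2.52, 2.10 and 2.35. The groups were apart in each line and the directions were opposite, with a difference of -3.82 ± 0.19 (adjusted p = 9.5e-07) that had been -1.60 without the ligand. ONECUT1 and SLC17A3 had differences of 3.13 and 3.22 with TGFβ1. APOH turned from 1.36 to -0.77 ± 0.24, as galunisertib changed it by -0.71 in SNU-449 compared with 0.06 in PLC/PRF/5 when TGFβ1 was present. DUSP5, with a difference of -0.11 without TGFβ1, had a difference of -1.67 ± 0.24 with it (adjusted p = 0.00073), from changes of 0.83 in SNU-449 compared with 2.50 in PLC/PRF/5.

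By list, the medians with TGFβ1 kept the sign for the TGFβ response genes at -0.35, hepatocyte transcription factors at 0.49, hepatocyte products at 0.22, MAPK genes at -0.56 and the transporters at 1.46. The sterol genes turned from 0.30 to -0.26, the CDK inhibitors and MYC family from 0.29 to -0.16, the cell cycle genes from 0.02 to -0.28 and the mesenchymal genes from -0.01 to 0.09. Over all genes the median with TGFβ1 was -0.13.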

How the data were processed

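RNA from 12 cultures was labelled with 1 dye and hybridised to Agilent arrays, 3 for each of 4 groups set by the deposited labels. The authors scanned the arrays and extracted them with Agilent Feature Extraction 10.7.3.1, and the deposited spot values are background-corrected intensity values. The deposited table of the authors' log2 values, centred per probe, was used as an alternative only, and its differences between arrays had a correlation of 0.999 with those computed here. Intensities were scaled to the 75th percentile of the array before log2 was taken. Outlier spots were left out, no spot was saturated, and spots of a probe were averaged. Gene names came from RefSeq for 31104 of 58201 probes and from LNCipedia for 10719, and 16378 stayed unnamed. The probe with the highest mean level stood for its gene. limma 3.58.1 in R 4.3.3 fitted 4 group means over the 12 arrays (lmFit, contrasts.fit, eBayes), and the same fit was run on the 12 arrays with TGFβ1. The fit was also run on simulated data with the same SD in all 4 groups for each gene, and no support is drawn from that run. The number of arrays limits the precision, and the p-values measure the spread between these cultures.

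The genes named are the 5 markers of the comparison, SERPINF2, BDH1, RGS9 and the hepatocyte transcription factors (1 of them is not reported here), the 10 largest called differences in each direction with the same sign on 3 slides, called members of the lists, genes called in both lines, and, as examples of no call, the first members of a list. The members and lists were chosen with earlier results of these data known. Replicate numbers equal slides. Deviations of same-numbered control and galunisertib arrays from their group means correlated at -0.05 to 0.05 in SNU-449 and 0.00 to 0.24 in PLC/PRF/5, so the numbers were not taken to pair the samples. Normexp used the median spot and background signals with an offset of 50, because the files read here hold no mean signal. Alternatives were the filter, background correction, scaling, probe choice, edge spots, samples in the fit, a replicate block, a plain t-test and leaving out arrays.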

Additional observations from a re-analysis of the deposited data

Results flagged for a closer look

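The test of the difference itself separated the lines for 111 genes, and for 32 of the named genes. Groups of 3 arrays were too small to look for arrays that stand apart. The differences higher in SNU-449 were 2.64 for SLC17A1, 2.64 for SOWAHD, 2.62 for SERPINF1, 2.17 for CDH1, 1.97 for SCGN, 1.90 for IFIT2, 1.72 for SLC17A3, 1.68 for CLDN14, 1.65 for COXFA4L3, 1.60 for ONECUT1 and 1.36 for APOH, in log2 units. Among the genes lower in SNU-449, those with the largest values were IL11 at -5.26, lnc-EPHA1-1:1 at -2.80, LHX1 at -2.61, PKP2 at -2.54, lnc-ATG7-2:1 at -2.28, SEPTIN2 at -2.24, UCN2 at -2.23, EPHB2 at -2.16, KRT83 at -2.15 and COL7A1 at -2.14. The other members of the lists were SPNS2 at -1.91, LIF at -1.85, IER3 at -1.77, FSTL3 at -1.67, CCN2 at -1.60, EFNA1 at -1.59, SMAD7 at -1.46, THBD at -1.31, PDGFB at -1.29, SPRY4 at -1.28 and LOXL4 at -1.16.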

How the results depend on the processing

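Of the 111 genes, 110 were called on the authors' normalized values, 104 after quantile normalization, 100 when the probes of a gene were averaged, 62 after scaling to the array median, 61 after normexp correction and 48 with no scaling. With probes kept when any 1 group had them above background throughout, 17302 genes were tested and 216 called, 109 of them lower in SNU-449 and the rest higher, with 231 by adjusted p, 214 in SNU-449, 52 in PLC/PRF/5 and 1106 with TGFβ1. Normexp gave 19 higher differences, 10 genes in PLC/PRF/5 and 1 in both lines. Scaling to the median gave 28 higher, 34 by adjusted p, 7 in both lines and 1136 with TGFβ1. No scaling gave 13 higher, 48 by adjusted p and 193 in SNU-449. Fitting all 24 arrays gave 169 by adjusted p. A plain t-test, without the random variance model that the study's methods name, gave 80 differences. Of these, 78 were called after Benjamini-Hochberg adjustment in place of the unadjusted threshold. The same plain t-test gave 34 genes in SNU-449 and 2 in both lines. The causes were not tested.

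Leaving out 1 array, or 1 replicate number in all groups, gave 63 to 155 differences, 24 to 75 higher and 39 to 84 lower, 4 to 167 by adjusted p, 96 to 153 genes in SNU-449, 14 to 24 in PLC/PRF/5, 2 to 5 in both lines, 470 to 644 with TGFβ1 and 82.6% to 95.5% with the same sign with TGFβ1. The lowest count of differences came without replicate 3. Adjusted calls numbered 63 without PLC/PRF/5 control replicate 2 and 167 without SNU-449 galunisertib replicate 2. With the replicate number as a block, 102 differences were called, 97 of them among the 111, and no count moved by over 1.5 times. The block ended the calls of UCN2 and SPRY4 among the named genes (unadjusted P = 0.00166 and 0.0015 in limma's test) and made one for HLF (0.000953).

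Differences that were not called turned sign for ASB2 after normexp (0.13), for RIN1 without SNU-449 control replicate 1 (0.0637) or 3 (0.00568) and without replicate 1 (0.0200) or 3 (0.0307), for NR5A2 without SNU-449 galunisertib replicate 1 (0.0187) and for DUSP5 without replicate 1 (0.0789). Over all arrays left out, RIN1 ranged from -0.137 to 0.0637, NR5A2 from -0.297 to 0.0187 and DUSP5 from -0.244 to 0.0789. SPRY4 turned to 0.16 without edge spots. Leaving 1 replicate number out of all groups ended the call of CDH1 for replicate 1 (1.88) or 3 (2.04), and of ONECUT1 for 2 (1.39) or 3 (1.52). It did so as well for CCN2, FSTL3, APOH, EPHB2, SEPTIN2, SPRY4 and lnc-EPHA1-1:1 without replicate 1, for SOWAHD, SLC17A3, CLDN14, lnc-ATG7-2:1, SEPTIN2, UCN2 and LOXL4 without 2, and for SOWAHD, SLC17A3, lnc-EPHA1-1:1, PKP2, UCN2, EPHB2, PDGFB, FSTL3, LOXL4, APOH and SPRY4 without 3. The plain t-test did not call SOWAHD, SLC17A3, SEPTIN2, UCN2, EPHB2 and SPRY4. Signals near background, as for SLC17A1, limit what the weakest probes can show.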

Other observations

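The levels of the called genes in untreated cells differed between the lines by direction. Of the 58 genes with a negative difference, 46 had the higher level in SNU-449 controls. Of the 53 with a positive difference, 21 did, against 51.0% of all 13105 genes. The control arrays enter both the level and the difference, so these counts are a description.

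Of the pairs of called genes next to each other among the tested genes, some had like values with TGFβ1 and others did not. UCN2 and COL7A1 had differences of -2.23 and -2.14 without TGFβ1 and -0.10 and -0.03 with it. SOX9, a transcription factor of progenitor cells, and the noncoding LINC00673 had -1.31 and -1.13 without TGFβ1 and -1.52 and -0.97 with it. Between them 2 other RefSeq genes start. LITATS1 and ZC3H12A, an RNase that degrades inflammatory transcripts, had -1.14 and -1.13 without and -0.13 and -0.06 with TGFβ1. The chromosome 6 run had 2.49 for SCGN, 3.39 for SLC17A1 and 3.22 for SLC17A3 with TGFβ1. SCGN, like SLC17A1, sat at the floor of -4.13 on every SNU-449 array with TGFβ1 alone, so both values are lower limits. RNF121 and IL18BP, both negative without it at -1.05 and -1.33, had opposite signs with it at -0.64 and 0.54. SPATA17 and RRP15, opposite without TGFβ1 at 1.41 and -1.19, stayed so at 2.04 and -1.55.

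Further genes named after their values were seen are those whose difference changed with TGFβ1. ADAM19, a metalloprotease, went from -1.29 to -3.25, and IGFBP3, which binds insulin-like growth factors, from -1.47 to -2.73. PPL, the desmosomal plaque protein periplakin, went from 1.36 to 2.88 and DAPK1, a death-associated kinase, from 1.19 to 2.42. IL18BP, the decoy receptor of IL-18, went from -1.33 to 0.54, with changes of -0.47 in SNU-449 and -1.004 in PLC/PRF/5 when TGFβ1 was present.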
